A study of Homo sapiens with 4 samples.

Results

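NT5E encodes CD73, an enzyme anchored on the outer cell surface that turns extracellular AMP into adenosine. The genes described here are NT5E and 9 others that make, sense, move or remove extracellular adenosine, 10 of the 61471 gene names counted. They were chosen by symbol. NT5E was chosen because its difference between the groups had already been seen, and the others by function with results of the same comparison known. Their differences between the groups are therefore a description, with no test of them, and support nothing beyond themselves.

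RNA came from MDA-MB-231, an established human line of triple-negative breast cancer cells, sequenced as 4 libraries of polyA-selected transcripts. The EGFP negative group (n = 2) carried the label of increased extravasation, the passage of tumour cells out of vessels, and the EGFP positive group (n = 2) the label of no increase. All 4 libraries had the same labelled genotype (WT) and the same transfections, H2B-EGFP, a histone joined to a green fluorescent protein, and CMV-RFP, a red fluorescent protein behind a viral promoter. EGFP status and extravasation status changed together and cannot be told apart. The labels do not say how many clones, cultures or days the libraries came from, so errors measure only the spread between libraries, which may be technical. In bulk RNA, fewer cells that express a gene and less of its RNA per cell cannot be told apart.

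Adenosine outside cells is built by stepwise removal of phosphates: ENTPD1 (CD39) takes ATP to AMP, ENPP1 cleaves ATP to AMP and pyrophosphate, and NT5E releases adenosine from AMP. Adenosine then acts on receptors such as ADORA1, which lowers cyclic AMP, and ADORA2A and ADORA2B, which raise it. It is carried across the membrane by SLC29A1, phosphorylated to AMP inside the cell by ADK, or deaminated to inosine by ADA, which the surface peptidase DPP4 (CD26) can hold outside the cell. NT5E is also widely used as a surface marker of mesenchymal stromal cells and is known from basal-like breast cancer lines.

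Gene counts summed to 12635576 and 11620076 in the EGFP negative libraries and to 11620005 and 11445076 in the EGFP positive ones. A count of 3, taken as the limit that a count of 0 allows, corresponded to 0.241 to 0.26 CPM (a count relative to the size of its library, adjusted for composition); such limits and intervals cover counting error only. H2BC11, an H2B gene, had 88 and 64 counts in EGFP negative and 7733 and 7352 in EGFP positive libraries, which separates the libraries by label. Of the markers of the line, VIM was called higher (5813 CPM in EGFP negative, 4199 CPM in EGFP positive cells), CD44 was called lower (641 CPM in EGFP negative, 865 CPM in EGFP positive cells) and AXL was not called (1623 CPM in EGFP negative, 1693 CPM in EGFP positive cells). ESR1 and PGR had at most 2 counts per library, and ERBB2 929 to 1235. Leukocyte markers reached at most 10 counts, with CD3E at 0 in all 4 libraries, and their sum was 1.45 to 1.54 CPM in EGFP negative and 0.781 to 1.21 CPM in EGFP positive libraries. Among 6 endothelial markers CDH5 was at 0. PECAM1 was called higher (39 and 43 counts in EGFP negative, 9 and 9 in EGFP positive libraries). It entered the fit only through the EGFP negative libraries, where the minimum count of 10 was reached. KDR, the most abundant, was not called (131 and 94 counts in EGFP negative, 152 and 153 in EGFP positive libraries). The sum of the 6 was 12 to 14.1 CPM in EGFP negative and 14.2 to 14.6 CPM in EGFP positive libraries. Among 6 stromal markers DCN was at 0, PDGFRB was called higher (73 and 52 counts in EGFP negative, 37 and 21 in EGFP positive libraries), COL1A1, the most abundant, was not called (279 and 162 counts in EGFP negative, 272 and 245 in EGFP positive libraries), and the sum was 18.8 to 28.6 CPM in EGFP negative and 23.3 to 27.3 CPM in EGFP positive libraries. The part of these markers in the results below was not tested.

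NT5E (GRCh38 chromosome 6, 85449584 to 85495791, plus strand, 9 merged exon blocks) was more abundant in EGFP negative cells. It had 8776 and 9446 counts in EGFP negative libraries 1 and 2, and 4392 and 4269 counts in EGFP positive libraries 1 and 2. Both EGFP negative libraries lay far above both EGFP positive ones, and none of its exon bases was shared with another annotated gene. The level was 757 ± 73.9 CPM in EGFP negative and 375 ± 6.65 CPM in EGFP positive cells (SD, n = 2 each). That is a log2 fold change, EGFP negative over EGFP positive, of 1.01 ± 0.08 (SE), or 2.02-fold, which placed NT5E at rank 453 of the 16413 genes fitted when ordered from the most increased. By level per length it stood above 96.5% of those genes.

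Neither ENPP1 nor ENTPD1, surface enzymes that can supply AMP to NT5E, was called. ENPP1 (chromosome 6, 131808020 to 131895155) had 125 and 132 CPM in EGFP negative libraries and 117 and 115 CPM in EGFP positive ones, a log2 fold change of 0.14 ± 0.09 (SE). Its groups did not overlap but lay close together, and it was not called. ENTPD1 (chromosome 10, 95711779 to 95877266) had 52 and 67 counts in EGFP negative libraries and 77 and 91 in EGFP positive ones, or 4.96 ± 1.11 CPM in EGFP negative and 7.28 ± 0.875 CPM in EGFP positive cells (SD, n = 2 each). Both EGFP negative libraries were below both EGFP positive ones, with a log2 fold change of -0.56 ± 0.24 (SE), and it was not called. Without EGFP negative library 2 it was called, at -0.79. Of the merged exon length of ENTPD1, 43.5% was also annotated to another gene, mostly to the antisense ENTPD1-AS1 (28 to 37 counts per library). Reads there could not be given to either gene, so the level of ENTPD1 is uncertain.

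Among the adenosine receptors, nearly every count fell on ADORA2B. ADORA2B (chromosome 17, 15945130 to 15975746) had 956 and 800 counts in EGFP negative libraries, against 1004 and 1060 in EGFP positive ones. ADORA1 had 1 and 0 counts in EGFP negative and 3 and 0 in EGFP positive libraries, and ADORA2A had 0 and 0 in EGFP negative and 0 and 1 in EGFP positive libraries. ADORA2B thus made up 99.7 to 100% of the counts of these 3 receptors in each library, and ADORA3, the other receptor known to lower cyclic AMP, had no count in any. The ADORA2A count says little about its expression, since 85.3% of its exon bases were shared, 81.6% with the read-through gene SPECC1L-ADORA2A, which itself had 0 counts.

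ADORA2B was modestly lower in EGFP negative cells, at 72.7 ± 5.83 CPM against 89.4 ± 3.64 CPM in EGFP positive cells (SD, n = 2 each). Both EGFP negative libraries were below both EGFP positive ones, and the log2 fold change was -0.30 ± 0.10 (SE). The call was lost in 7 of 11 alternative fits, among them those without EGFP negative library 2 (-0.21), EGFP positive library 1 (-0.34) and EGFP positive library 2 (-0.26), while the direction was the same in all 11.

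**Figure D1:**
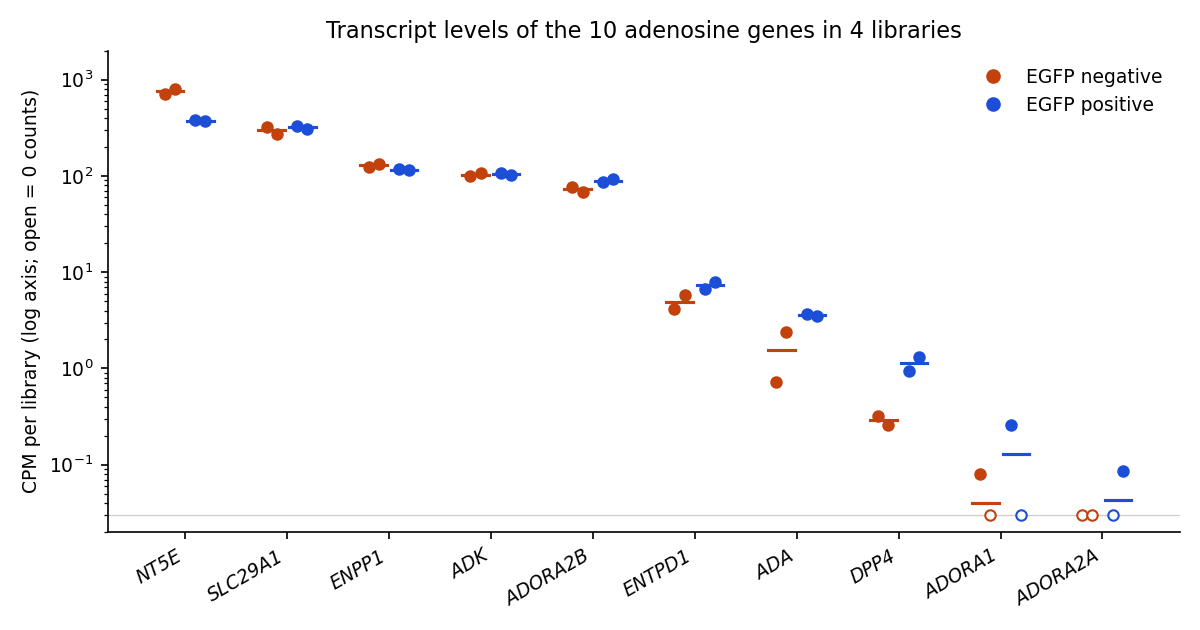
CPM of each of the 10 genes in each library on a log axis, with EGFP negative libraries left of EGFP positive ones; points are libraries, lines are group means (n = 2), and open points mark 0 counts. NT5E has the highest CPM in both groups, but CPM is not divided by gene length, and per length SLC29A1 came first in EGFP positive cells. NT5E separates the groups widely, at 705 and 810 CPM in EGFP negative against 380 and 371 CPM in EGFP positive libraries. ADORA1 and ADORA2A lie at or near 0.

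Of the genes that take adenosine up or remove it inside the cell, the abundant ones were at similar levels. SLC29A1 (chromosome 6, 44219553 to 44234142), the equilibrative transporter ENT1, had 321 and 274 CPM in EGFP negative libraries and 332 and 307 CPM in EGFP positive ones. These ranges overlapped, and the log2 fold change was -0.10 ± 0.09 (SE); without EGFP negative library 1 SLC29A1 was called lower, at -0.22. ADK (chromosome 10, 74151202 to 74709926), adenosine kinase, had 99.5 and 107 CPM in EGFP negative and 107 and 102 CPM in EGFP positive libraries, with a log2 fold change of -0.01 ± 0.09 (SE). Its groups overlapped.

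ADA and the peptidase that anchors it were both scarce, with lower values in EGFP negative cells. ADA (chromosome 20, 44618605 to 44652252, minus strand) had 9 and 28 counts in EGFP negative libraries and 43 and 40 in EGFP positive ones. Both EGFP negative libraries were below both EGFP positive ones but were far apart, at 0.723 and 2.40 CPM, and the log2 fold change of -1.22 ± 0.42 (SE) was not called. Without EGFP negative library 2 ADA was called, at -2.29, and without EGFP negative library 1 it was not, at -0.58. It was also called by limma-voom, at -1.44. The opposite-strand gene PKIG covers 13% of the exon bases of ADA, and the counting used no strand.

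DPP4 (chromosome 2, 161992245 to 162074394, minus strand) had 4 and 3 counts in EGFP negative libraries and 11 and 15 in EGFP positive ones. Its ratio of EGFP negative to EGFP positive was 0.258, with a 95% counting interval of 0.0944 to 0.610, and the fitted log2 fold change was -1.92 ± 0.60 (SE). It entered the fit only through the EGFP positive libraries, where the minimum count of 10 was reached. DPP4 was called, but not without EGFP negative library 2 (-1.77), EGFP positive library 1 (-2.13) or EGFP positive library 2 (-1.68), nor with no filter on low counts.

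By count, 8 of the 10 genes passed the filter on low counts, and ADORA1 and ADORA2A did not. Of the 8, 1 was called higher (NT5E) and 2 lower (ADORA2B and DPP4) at an adjusted p of 0.05 in edgeR's quasi-likelihood fit. The same fit called 18.9% of all 16413 genes, 9.4% higher and 9.46% lower. Groups did not overlap for 6 of the 8, 2 with EGFP negative above and 4 with EGFP positive above, where 57.4% of all fitted genes did not overlap, 28.1% with EGFP negative and 29.3% with EGFP positive above. The median log2 fold change of the 8 was -0.20, against -0.003 over all genes fitted. Since the genes were chosen with this comparison known, nothing is read from these counts.

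**Figure D2:**
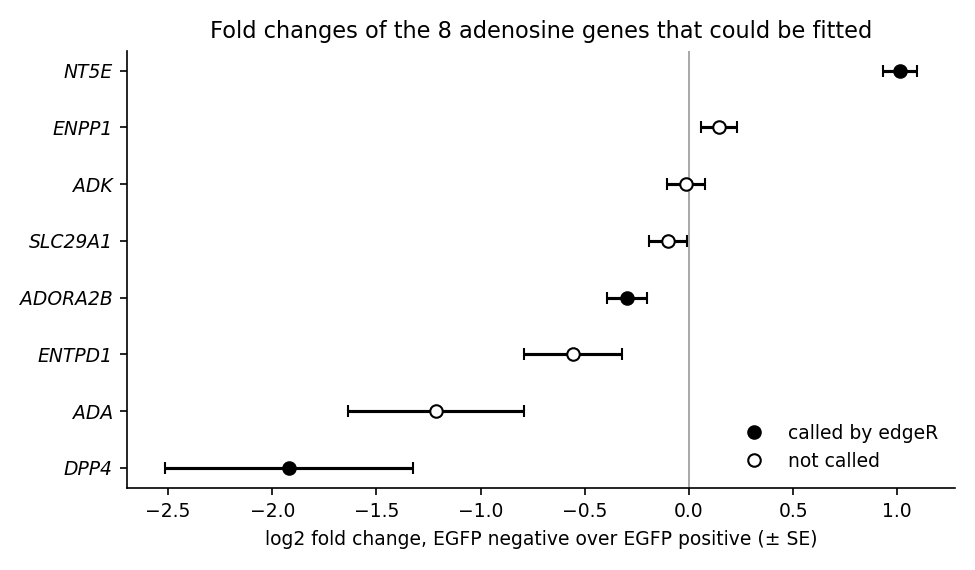
Log2 fold change of the 8 genes that could be fitted, EGFP negative over EGFP positive, with its standard error; filled points were called by edgeR and open points were not. NT5E stands alone on the right at 1.01, ENPP1, ADK and SLC29A1 lie near 0, and the widest errors belong to ADA and DPP4, which had the fewest counts.

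Levels of different genes were compared as RPKM, CPM divided by the merged exon length in kilobases. In EGFP negative cells NT5E came first at 179 ± 17.4 RPKM, followed by SLC29A1 at 106 ± 11.7, ADORA2B at 47.8 ± 3.83, ADK at 30.4 ± 1.65 and ENPP1 at 17.3 ± 0.624 RPKM (SD, n = 2). ADA at 0.424 ± 0.322 and ENTPD1 at 0.387 ± 0.0863 RPKM came next and did not differ beyond their spread, with DPP4 last of those fitted at 0.0556 RPKM. In EGFP positive cells SLC29A1 came first at 114 ± 6.41 RPKM and NT5E second at 88.5 ± 1.57 RPKM, then ADORA2B at 58.8 ± 2.39, ADK at 30.7 ± 1.06 and ENPP1 at 15.6 ± 0.177 RPKM. ADA at 0.977 ± 0.0476, ENTPD1 at 0.568 ± 0.0682 and DPP4 at 0.217 ± 0.0477 RPKM completed that order.

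NT5E and SLC29A1 exchanged places between the groups. NT5E had 1.45 and 1.95 times the RPKM of SLC29A1 in EGFP negative libraries, against 0.758 and 0.8 times in EGFP positive ones. Against ADK, which returns adenosine to AMP, the ratio was 5.68 and 6.04 in EGFP negative and 2.85 and 2.91 in EGFP positive libraries. Against ENTPD1 it was 510 and 426 in EGFP negative libraries and 172 and 142 in EGFP positive ones, with the reservation on ENTPD1 given above. Of the summed RPKM of all 10 genes, NT5E took 44.0 and 49.7% in EGFP negative and 28.5 and 28.7% in EGFP positive libraries. NT5E is the numerator of these ratios and shares. They largely restate the difference for which it was chosen and are not a further result. ADK exceeded ADA 149-fold and 48.4-fold per length in EGFP negative libraries, against 31.1-fold and 31.8-fold in EGFP positive ones. The 149-fold value rests on 9 ADA counts in EGFP negative library 1, and ADA, with the reservations given above, was not called.

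**Figure D3:**
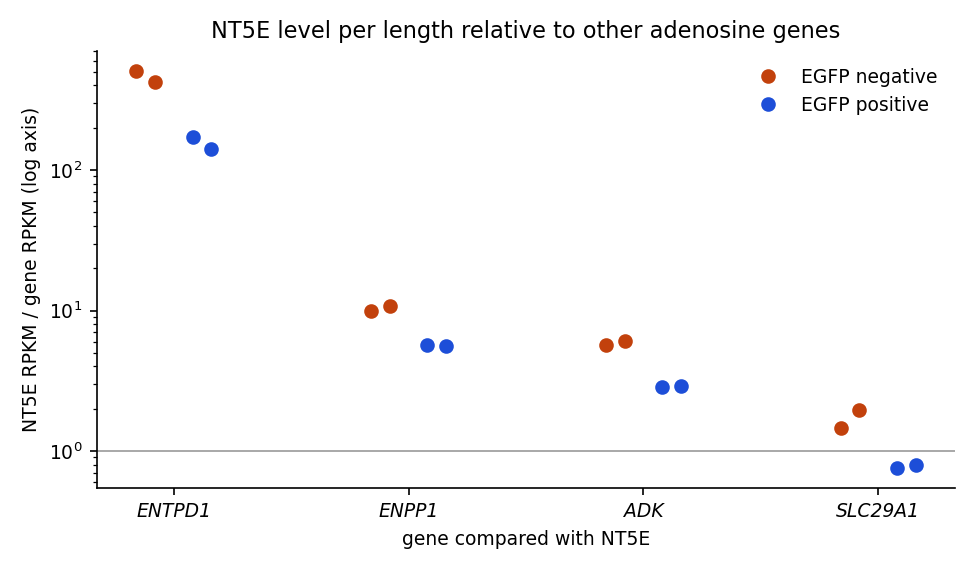
RPKM of NT5E divided by that of ENTPD1, ENPP1, ADK and SLC29A1 in each library, on a log axis, EGFP negative left of EGFP positive; the grey line marks equal levels. The ratio is higher in both EGFP negative libraries for each of the 4 genes. It lies above 1 in EGFP negative and below 1 in EGFP positive libraries only for SLC29A1. NT5E is the numerator throughout, so the ratios largely restate its own difference.

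Promoter sequence from RefSeq (GRCh38.p14) was available for 9 of the 10 genes. The 250 bases before each RefSeq start in that set were searched on both strands for 3 short motifs. TGACG, the core letters of the cyclic AMP response element, is shown because ADORA2B raises cyclic AMP. It was present before a start of 5 of the 9 genes, NT5E, ADORA2B, DPP4, ENTPD1 and ADK, and in 21.2% of all 35116 promoter windows. ENTPD1, ADK and SLC29A1 have several starts in that set and so several chances of a match to any motif. The shares of all windows are per window and not per gene, so the counts of genes cannot be set against them. ACGTG, the core bound by hypoxia-inducible factors, was present in DPP4, ENPP1 and SLC29A1 and in 18.5% of all windows. GGAATG, the TEAD core, was present in ADK alone and in 11.9% of all windows. Neither ACGTG nor GGAATG occurred in the 250 bases before the RefSeq start of NT5E, and the bases farther upstream were not searched. The windows around TGACG in the 3 called genes follow, 5′ to 3′ in the direction of the gene, with the matched letters in capitals (for DPP4 they read as the reverse complement, CGTCA). They lie at chr6:85449943-85449972 (plus strand), chr17:15944891-15944920 (plus strand) and chr2:162074385-162074414 (minus strand). The matches begin 127, 226 and 186 bases before the searched RefSeq starts of NT5E (85450083), ADORA2B (15945130) and DPP4 (162074215). The annotation used for counting places the outermost start of NT5E upstream of its searched window, at 85449584, so the NT5E match lies inside the gene as given above. It also places that of DPP4 at 162074394, close to the DPP4 match. For ADORA2B, RefSeq places the outermost start of the gene at 15850362, upstream of the searched window. The bases before that start were not searched.
NT5E: gggtcggatcgggTGACGtcgcgaacttgc
ADORA2B: ccgagctcgagcgTGACGggaagttggggc
DPP4: agctgaacgccgaCGTCAtttttagctaag
These are matches of letters and do not show binding. Any part of these letters in the differences of NT5E, ADORA2B and DPP4 between the groups was not tested.

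The genes around NT5E on chromosome 6 were not called with it. Only SNX14 and SYNCRIP were protein-coding, fitted and started within 1 Mb of it. SNX14 was at 7.99 CPM in EGFP negative and 6.76 CPM in EGFP positive cells (log2 fold change 0.24 ± 0.25, SE), and SYNCRIP at 94.4 CPM in EGFP negative and 90.7 CPM in EGFP positive cells (0.06 ± 0.10, SE). Neither was called.

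Among 12083 other genes with a mean of at least 5 CPM, the 5 whose pattern over the 4 libraries lay nearest to that of NT5E were ERO1B, PIK3C2B, NET1, LAT2 and CPE. Likeness was the Euclidean distance between log2 CPM values centred on each gene's mean, and it ran from 0.06 for ERO1B to 0.13 for CPE. NET1, an exchange factor for the GTPase RhoA, was at 228 CPM in EGFP negative and 122 CPM in EGFP positive cells. In EGFP negative cells CPE, carboxypeptidase E, was at 29 CPM, PIK3C2B, a lipid kinase gene, at 11.9 CPM, LAT2 at 10.0 CPM and ERO1B, an oxidase gene of the endoplasmic reticulum, at 6.98 CPM. In EGFP positive cells CPE was at 13.8 CPM, PIK3C2B at 6.11 CPM, LAT2 at 4.68 CPM and ERO1B at 3.42 CPM. With 4 libraries in 2 groups, many genes can look alike by this measure. The measure follows the group difference of NT5E, so their own differences between the groups were set by the choice and are not a result.

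The wider handling of nucleotides was examined in 8 lists of 93 other genes grouped by function, of which 55 were fitted. Of these, edgeR called 5 higher and 7 lower in EGFP negative cells, with Benjamini-Hochberg adjustment. The same fit called 18.9% of all genes, 9.4% higher and 9.46% lower. The median log2 fold change of the 55 genes was -0.13. Counts per list below are small and are a description, and no list is said to have moved. Adjusted p-values below come from that fit over all genes. The lists were chosen with earlier results of these data known, so these p-values are a description and not independent tests.

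Genes with P2X and P2Y names, most of them receptors for extracellular ATP and other nucleotides, had 2 higher and 0 lower of 6 fitted. Of the 17 genes listed, 11 were too low to fit. P2RY2, a receptor for ATP and UTP, had 656 and 482 counts in EGFP negative libraries and 278 and 286 in EGFP positive ones. Its log2 fold change was 0.94 ± 0.13 (SE, edgeR adjusted p = 0.000177). P2RY6, a receptor for UDP, had 43 and 25 counts in EGFP negative and 11 and 14 in EGFP positive libraries (log2 fold change 1.37 ± 0.40, SE, edgeR adjusted p = 0.0297). The P2RY6 call was lost without EGFP negative library 1 (0.97), EGFP positive library 1 (1.20) or EGFP positive library 2 (1.55), and by DESeq2. The ATP-gated channel genes P2RX4 and P2RX5 were at 6.87 and 5.25 CPM in EGFP negative and 8.06 and 6.76 CPM in EGFP positive cells and were not called, and P2RX7 had at most 2 counts in a library.

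Channels and transporters that release ATP had 2 higher and 2 lower of 11. GJB2, connexin 26, had 350 and 284 counts in EGFP negative libraries against 96 and 97 in EGFP positive ones, a log2 fold change of 1.65 ± 0.15 (SE, edgeR adjusted p = 4.67e-06). CALHM2, a channel gene, was at 27.5 CPM in EGFP negative and 16.2 CPM in EGFP positive cells (log2 fold change 0.76 ± 0.15, SE). The lower genes were PANX1, pannexin 1, at 32.4 CPM in EGFP negative and 45.1 CPM in EGFP positive cells (-0.48 ± 0.11, SE), and SLC17A9, the vesicular nucleotide transporter, at 55.0 CPM in EGFP negative and 78.3 CPM in EGFP positive cells (-0.51 ± 0.11, SE). PANX1 lost its call without EGFP positive library 1 (-0.48) or 2 (-0.48), and SLC17A9 without EGFP positive library 1 (-0.47). LRRC8A, the obligatory subunit of volume-regulated anion channels, was the most abundant of the list at 216 CPM in EGFP negative and 185 CPM in EGFP positive cells and was not called.

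Of 6 other fitted surface enzymes that split nucleotides, 0 were higher and 1 lower. ALPP, placental alkaline phosphatase, had 19 and 13 counts in EGFP negative libraries and 86 and 79 in EGFP positive ones, with a log2 fold change of -2.42 ± 0.29 (SE, edgeR adjusted p = 5.52e-05). Its near-identical relative ALPG, with 3 and 1 counts in EGFP negative and 15 and 7 in EGFP positive libraries, could share reads with it, so the value of ALPP is uncertain. ENTPD3, a relative of ENTPD1, had 49 and 57 counts in EGFP negative and 83 and 75 in EGFP positive libraries (log2 fold change -0.64 ± 0.23, SE) and was not called. CD38, which consumes NAD outside cells, had 0 and 0 counts in EGFP negative and 7 and 0 in EGFP positive libraries. Of the 4 ENTPD enzymes inside the cell, ENTPD7 was lower at 15.9 CPM in EGFP negative against 26.1 CPM in EGFP positive cells (-0.71 ± 0.13, SE) and ENTPD4, ENTPD5 and ENTPD6 were not called.

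Enzymes of nucleotide and nucleoside turnover inside the cell were examined in a pair of lists. Not all of them act mainly on AMP or adenosine, so their calls do not give the production of adenosine. Among 5 cytosolic or mitochondrial 5′-nucleotidases, NT5C was higher at 34.2 CPM in EGFP negative against 23.0 CPM in EGFP positive cells (log2 fold change 0.57 ± 0.14, SE), and NT5C3A, which prefers pyrimidine nucleotides, was lower at 16.8 CPM in EGFP negative against 24.2 CPM in EGFP positive cells (-0.53 ± 0.14, SE). NT5C lost its call without EGFP positive library 2 (0.38), and NT5C3A without EGFP positive library 1 (-0.54) or 2 (-0.51) and by DESeq2. In the list of salvage and AMP turnover, 0 were higher and 2 lower of 16. These were AMPD2, an AMP deaminase, at 50.3 CPM in EGFP negative against 64.9 CPM in EGFP positive cells (-0.37 ± 0.10, SE) and APRT, which returns adenine to AMP, at 79.4 CPM in EGFP negative against 96.1 CPM in EGFP positive cells (-0.27 ± 0.09, SE). Both lost their calls without EGFP positive library 1 (-0.32 for each) or library 2 (-0.41 for AMPD2 and -0.23 for APRT), and APRT also with other scalings, with no filter and by DESeq2. AHCY, which frees adenosine from S-adenosylhomocysteine, was at 332 CPM in EGFP negative and 388 CPM in EGFP positive cells and was not called.

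Other nucleoside transporters had 0 calls among 3 fitted, with SLC29A2 at 19.8 CPM in EGFP negative and 15.5 CPM in EGFP positive cells and SLC29A3 at 14 CPM in EGFP negative and 16.6 CPM in EGFP positive cells. Without EGFP negative library 2 SLC29A2 was called at 0.40, and without EGFP negative library 1 SLC29A3 was called at -0.60. Concentrative transporters of the SLC28 family had at most 2 counts in a library. Of the 4 fitted relatives of DPP4 none was called, with DPP9 at 173 CPM and DPP7 at 68.7 CPM in EGFP negative cells, and at 160 CPM and 70.1 CPM in EGFP positive cells; without EGFP negative library 2 DPP9 was called at 0.19. FAP, the closest relative of DPP4, had no count in any library.

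**Figure D4:**
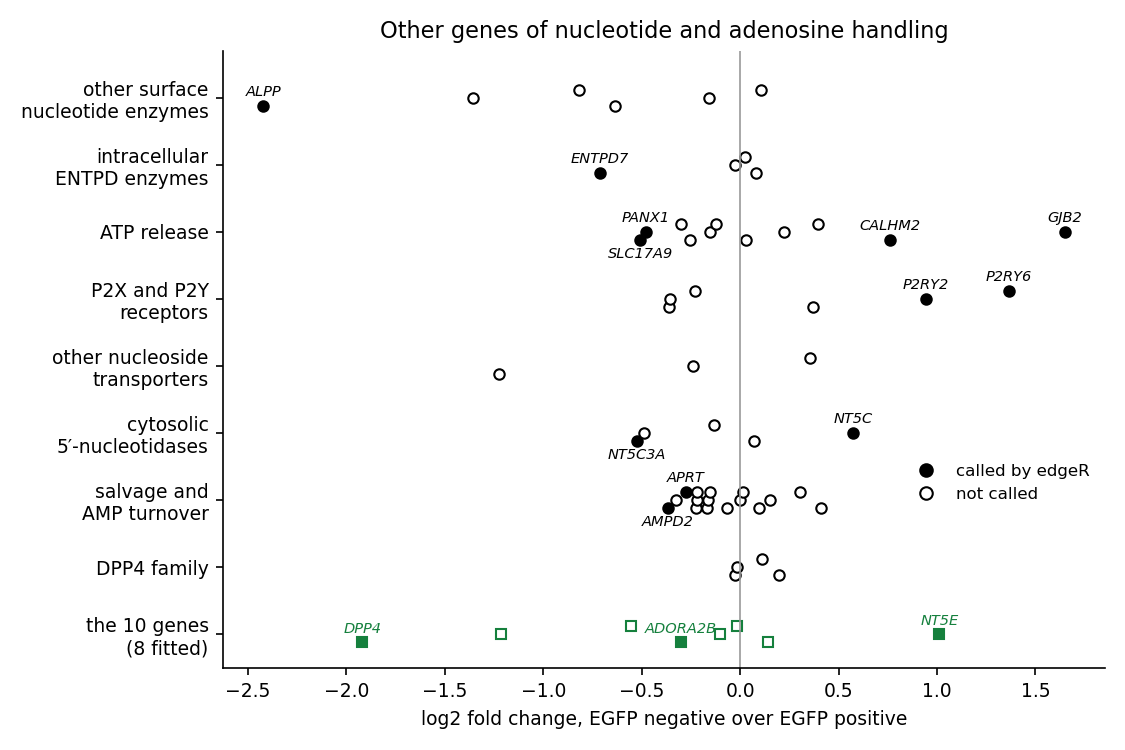
Log2 fold change, EGFP negative over EGFP positive, of the 55 fitted genes of the 8 lists (circles) and of the 8 fitted genes described above (squares); filled symbols were called by edgeR and carry their names. P2RY2, P2RY6, GJB2, CALHM2 and NT5C are the called list genes on the right, and ALPP lies farthest to the left at -2.42.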

How the data were processed

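Per the file headers, the authors made raw fragment counts with featureCounts 2.0.1 in paired mode, from exons summed per gene name of GENCODE 46 (basic set), without a strand option. Which aligner was used is not given in the sources used here. The submitters' processing notes name Subread and the builds GRCh37 and hg19. Deposited coordinates matched GRCh38, since 99.6% of 19232 protein-coding genes had a start or end within 5000 bp of RefSeq GRCh38.p14, which does not show the build used for alignment.

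CPM, with TMM factors (0.987 to 1.009), and RPKM were computed here from the deposited counts and exon lengths. Genes were kept by filterByExpr (minimum count 10, minimum total 15). edgeR 4.0.16 (R 4.3.3) fitted all 4 libraries by quasi-likelihood with group as the only term, two-sided, with Benjamini-Hochberg adjustment at 0.05. The SE is the log2 fold change over the square root of F. The biological coefficient of variation was 7.52%. Replicates differed beyond sampling noise (chi-square per degree of freedom 4.35 in EGFP negative and 1.75 in EGFP positive libraries). An exact permutation of 2 against 2 libraries cannot go below p = 0.33. On simulated counts for this comparison (16413 genes), the fit recovered 59.7% of the genes shifted 1.5-fold, 79.1% at 2-fold and 100% at 4-fold. Each size had 66 or 67 genes, and there were 6 false calls. Every simulated gene had the same coefficient of variation, 7.5%, in both groups, whereas the spread of the replicates here differed between the groups. The simulation therefore does not give the recovery or the false calls in these data.

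Named genes were the 10 genes, up to 4 called genes per list (or the 2 most abundant where none was called) and the 5 nearest to NT5E. Label-check, marker, neighbouring and other uncalled genes named lie outside that rule and were chosen after their values were seen. Values of some list genes are not reported here. Genes and lists were chosen with earlier results of these data known. Alternatives were RLE and upper quartile scaling, no filter, a stricter filter (1 CPM in at least 2 libraries, summed count 100), DESeq2 1.42.0, limma-voom (limma 3.58.1), a replicate block and each library left out with the tested genes kept. Figures used matplotlib 3.10.9.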

Additional observations from a re-analysis of the deposited data

How the results depend on the processing

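NT5E kept its direction and its call in all 11 alternatives, with log2 fold changes of 0.92 to 1.11. The direction was also kept in every alternative that gave a value for ENTPD1, ENPP1, ADORA2B, ADA and DPP4, but not for ADK or SLC29A1, neither of which was called in the fit reported. Of the 10 genes 3 were called; 1 (NT5E) was called with no filter on low counts and 1 by DESeq2, which gave DPP4 no adjusted p, and 1 to 4 with a library left out. Over all genes, 3095 were called in the fit reported, 2041 by DESeq2 (12.4% of 16413), and 1452 to 4942 with a library left out, fewest without EGFP positive library 2 and most without EGFP negative library 2. Of the list genes 12 were called, and 6 to 20 with a library left out. Fits without 1 library have 1 group of 1, whose spread is assumed to be that of the other group. Replicate numbers are shared by both groups, but nothing in the labels pairs the libraries. The correlation of the differences between replicates across genes was 0.114. With the replicate number as a block, 4704 genes and 21 list genes were called, and ADA was added to the 3 called genes. The cause of these shifts was not tested. The least precise values were those of the scarce genes, with standard errors of 0.42 for ADA and 0.60 for DPP4.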

Other observations

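MTAP, which recycles the adenine of methylthioadenosine, a by-product of polyamine synthesis, had 0 counts in all 4 libraries. Any level from reads that could be given to MTAP alone lay under about 0.241 to 0.26 CPM. ADA2, the secreted adenosine deaminase, and the guanine deaminase gene GDA also had 0 counts in all 4. Exons shared with other genes were not examined for MTAP, ADA2 or GDA, so reads in such exons could have gone uncounted. AK4, a mitochondrial adenylate kinase, was at 50.4 CPM in EGFP negative cells, against 49.9 CPM in EGFP positive cells. Of the fitted protein-coding genes within 1 Mb of SLC29A1, 0 of 21 were called higher and 6 lower, where 9.46% of all fitted genes were called lower. This gene was picked out of the 10 after the values were seen, because it had the most calls around it, and each of the others had between 0 and 3.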
